A study of Homo sapiens with 12 samples.

Results

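Laminin-332 and the epithelial integrins that bind it or neighbouring matrix were followed here as 9 genes, the laminin chains LAMA3 and LAMB3, the integrin α subunits ITGA2, ITGA3, ITGA6 and ITGAV, and the integrin β subunits ITGB1, ITGB4 and ITGB6. The rule names the genes and uses no measured value, but the choice was made with earlier results of these data known. They are 9 of 58288 genes listed for each library, and all 9 were among the 15973 genes that passed the filter on low values and were tested. RNA-seq libraries were made from FaDu, a squamous carcinoma line of the pharynx, with 3 libraries in each of 4 groups. STING WT cells carried Cas9 and a non-targeting gRNA, and STING KO cells carried Cas9 and a gRNA against STING, the adaptor that relays cytosolic DNA sensing to interferon induction. Each was either left unirradiated or given 4 daily radiation fractions of 2 Gy. All 12 libraries came from cultured tumor cells in DMEM with FBS. The time between the last fraction and RNA collection, and whether the KO cells were a clone or a selected pool, are not given in the sources used here. Each genotype came under a single cell name. A KO difference therefore cannot be told apart from any other difference between the derived cells compared. The labels do not say that the 3 libraries of a group came from separate cultures, so p-values measure the spread between these libraries, which may be technical.

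Laminins are secreted trimers of an α, a β and a γ chain, and laminin-332, which holds the α3 and β3 chains, anchors squamous epithelium to its basement membrane. Integrins are membrane heterodimers of an α and a β subunit. Integrin α6β4 holds laminin-332 in the hemidesmosome, α3β1 binds it in focal contacts, α2β1 is a collagen receptor, and αvβ6 binds fibronectin and the latent form of TGF-β.

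Levels are given as TPM, transcripts per 1000000, a unit that is corrected for transcript length and can be compared between genes. Fold changes are differences in log2(TPM + 1) from a limma fit to all 12 libraries with Benjamini-Hochberg adjustment over the 15973 genes, and a gene is said to have changed where the adjusted p was under 0.05. TMEM173, which encodes STING, was measured at 22.1 ± 1.24 TPM (SD, n = 3) in unirradiated WT, 5.81 ± 0.99 in unirradiated KO, 23.1 ± 2.61 in irradiated WT and 6.95 ± 0.54 in irradiated KO, so its transcript was reduced and still present in the KO libraries. All 10 squamous epithelial markers listed (among them KRT5, KRT17 and TP63) were expressed, with a summed level of 7498 to 10320 TPM per library. Some of them changed, in both directions. KRT17 was lower in KO than in WT before (−0.29, adjusted p = 0.014) and after radiation (−0.46, adjusted p = 4.9e-04), and KRT14 was higher in unirradiated KO (0.24, adjusted p = 0.022). After radiation DSG3 fell in both genotypes (−0.38 in each, adjusted p = 0.0064 and 0.0056), EPCAM rose in both (0.15 and 0.18, adjusted p = 0.046 and 0.023), and SFN fell in KO (−0.28, adjusted p = 0.010) and was lower in irradiated KO than in irradiated WT (−0.21, adjusted p = 0.038). Of 12 mesenchymal, endothelial and leukocyte markers, 8 stayed under 1 TPM in every library, and COL1A2, DCN, PECAM1, PTPRC and CD3E were at most 0.0989 TPM. The rest were expressed in every library. COL1A1 was at 6.34 to 9.24 TPM, VWF at 2.60 to 4.49, CDH5 at 8.51 to 19.8 and CD14 at 2.62 to 4.35. The summed level of the 12 markers was 21.1 to 27.1 TPM in the unirradiated libraries and 27.9 to 34.2 TPM in the irradiated libraries. CDH5, an endothelial cadherin, rose with radiation in WT (log2 fold change 0.61, adjusted p = 0.029) and in KO (0.61, adjusted p = 0.026), and CD14, a monocyte marker, was higher in unirradiated KO than in unirradiated WT (0.40, adjusted p = 0.043). The part of these markers in the results was not tested.

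Promoter sequence is shown for ITGA2, the gene with the clearest difference in level, and for LAMA3 and LAMB3, the laminin chains among the members, which hold the AP-1 motif. RefSeq promoter windows (GRCh38.p14, 250 bases before to 50 bases after an annotated start) were found for 7 of the 9 genes, 12 windows in all. ITGA3 and ITGB4 were not matched. Both strands were searched for TGANTCA, the site bound by AP-1 factors, and GGGCGG, the site bound by Sp1. The bases before the start are printed 5′ to 3′ on the strand of the gene, with GGGCGG in capitals for ITGA2 and TGANTCA in capitals for the laminin chains. The ITGA2 sequence is chr5:52989102-52989351 on the plus strand, the LAMA3 sequence is chr18:23872770-23873019 on the plus strand, and the LAMB3 sequence is chr1:209651375-209651624 on the minus strand.
ITGA2: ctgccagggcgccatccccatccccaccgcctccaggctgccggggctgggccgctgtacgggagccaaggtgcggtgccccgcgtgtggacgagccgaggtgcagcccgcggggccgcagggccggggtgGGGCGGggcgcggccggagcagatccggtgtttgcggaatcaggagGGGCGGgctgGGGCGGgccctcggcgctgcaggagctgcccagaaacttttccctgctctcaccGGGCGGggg
LAMA3: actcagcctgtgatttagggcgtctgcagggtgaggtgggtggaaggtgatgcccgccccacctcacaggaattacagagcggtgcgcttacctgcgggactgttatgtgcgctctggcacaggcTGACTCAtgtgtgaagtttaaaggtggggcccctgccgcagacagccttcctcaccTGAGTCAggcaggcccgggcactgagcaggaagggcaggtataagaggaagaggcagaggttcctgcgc
LAMB3: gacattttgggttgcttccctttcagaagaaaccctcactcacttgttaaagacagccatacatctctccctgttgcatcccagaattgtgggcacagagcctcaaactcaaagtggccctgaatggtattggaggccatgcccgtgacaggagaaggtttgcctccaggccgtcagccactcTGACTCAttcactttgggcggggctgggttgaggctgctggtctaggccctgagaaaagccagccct

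The ITGA2 window held GGGCGG 4 times, with first bases 119, 73, 63 and 9 bases before the start, and no TGANTCA. The LAMA3 window, which lies inside the gene downstream of the outermost annotated start, held TGANTCA 2 times, at 125 and 69 bases before the start. This LAMB3 window held TGANTCA 1 time, 67 bases before the start, and the other LAMB3 windows held none. GGGCGG was not particular to ITGA2, as on either strand it also stood 1 time in the LAMA3 window (197 bases before the start), 1 time in each of the 3 LAMB3 windows (52, 184 and 88 bases before), and 3 times in a window each of ITGA6 and ITGB1. The LAMB3 matches at 184 and 88 bases before lie in overlapping windows and are the same bases of the genome. TGANTCA was not among the letters of any of the 8 integrin windows. Over all RefSeq windows, 7.71% held TGANTCA and 45% held GGGCGG, and over the windows of tested genes the shares were 5.35% and 66%. These matches describe the letters in the windows and say nothing of which factors are bound.

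LAMA3 encodes the α3 chain, which carries the integrin-binding end of laminin-332. Its level was 32.3, 33.7 and 29.1 TPM in unirradiated WT, 33.6, 33.5 and 33.3 in unirradiated KO, 33.8, 28.9 and 29.2 in irradiated WT, and 32.5, 34.5 and 33.0 in irradiated KO. The groups overlapped in every comparison. The largest log2 fold change was 0.12 (irradiated KO against irradiated WT, 95% interval −0.04 to 0.28, adjusted p = 0.43), and after radiation LAMA3 differed by −0.05 in WT (−0.21 to 0.11) and by −0.01 in KO (−0.16 to 0.15).

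LAMB3 encodes the β3 chain. It was measured at 145, 160 and 162 TPM in unirradiated WT, 171, 143 and 150 in unirradiated KO, 159, 139 and 151 in irradiated WT, and 154, 139 and 121 in irradiated KO. The lowest value was in an irradiated KO library and the groups again overlapped in every comparison. Its log2 fold changes ran from −0.17 (radiation in KO, −0.38 to 0.04, adjusted p = 0.40) to −0.01 (KO against WT, unirradiated, −0.22 to 0.20, adjusted p = 0.97). In every group the TPM of LAMA3 was below that of LAMB3, and the ratio of LAMA3 to LAMB3 was 0.204 ± 0.022 in unirradiated WT and 0.244 ± 0.031 in irradiated KO, with overlapping groups.

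ITGA2, the α subunit of the collagen receptor α2β1, was the member with the largest fold changes after radiation. Its level was 7.61, 9.49 and 7.78 TPM in unirradiated WT and 16.4, 16.4 and 14.4 TPM in irradiated WT. In KO cells it was 7.67, 7.72 and 7.28 TPM before and 11.4, 12.2 and 11.8 TPM after radiation. Every irradiated library was above every unirradiated library, and every irradiated KO library was below every irradiated WT library. ITGA2 rose 1.90-fold in mean TPM in WT (8.29 ± 1.04 to 15.7 ± 1.17, SD, n = 3), a log2 fold change of 0.85 (SE 0.086, 95% interval 0.66 to 1.04, adjusted p = 6.7e-04). In KO it rose 1.56-fold (7.56 ± 0.24 to 11.8 ± 0.37), a log2 fold change of 0.58 (0.39 to 0.77, adjusted p = 0.0056). Both rises passed the threshold in all 8 alternative settings and after leaving out each of the 12 libraries.

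Unirradiated KO and WT cells overlapped in ITGA2 (log2 fold change −0.11, 95% interval −0.30 to 0.08, adjusted p = 0.61). In irradiated cells ITGA2 was 0.748 times the WT level in KO, a fall of 0.39 on the log2 scale (0.20 to 0.58, adjusted p = 0.036). This call was close to the threshold. The adjusted p ranged from 0.017 to 0.13 over the alternatives, and the call was lost with no filter on low values, with only the irradiated libraries fitted, and without any 1 of 8 libraries (each KO library, or irradiated WT replicate 1 or 2). The test of whether the radiation effect itself differed between KO and WT gave a difference of −0.27 for ITGA2 (−0.54 to −0.0038, unadjusted p = 0.047) that did not pass adjustment (adjusted p = 0.75).

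**Figure D1:**
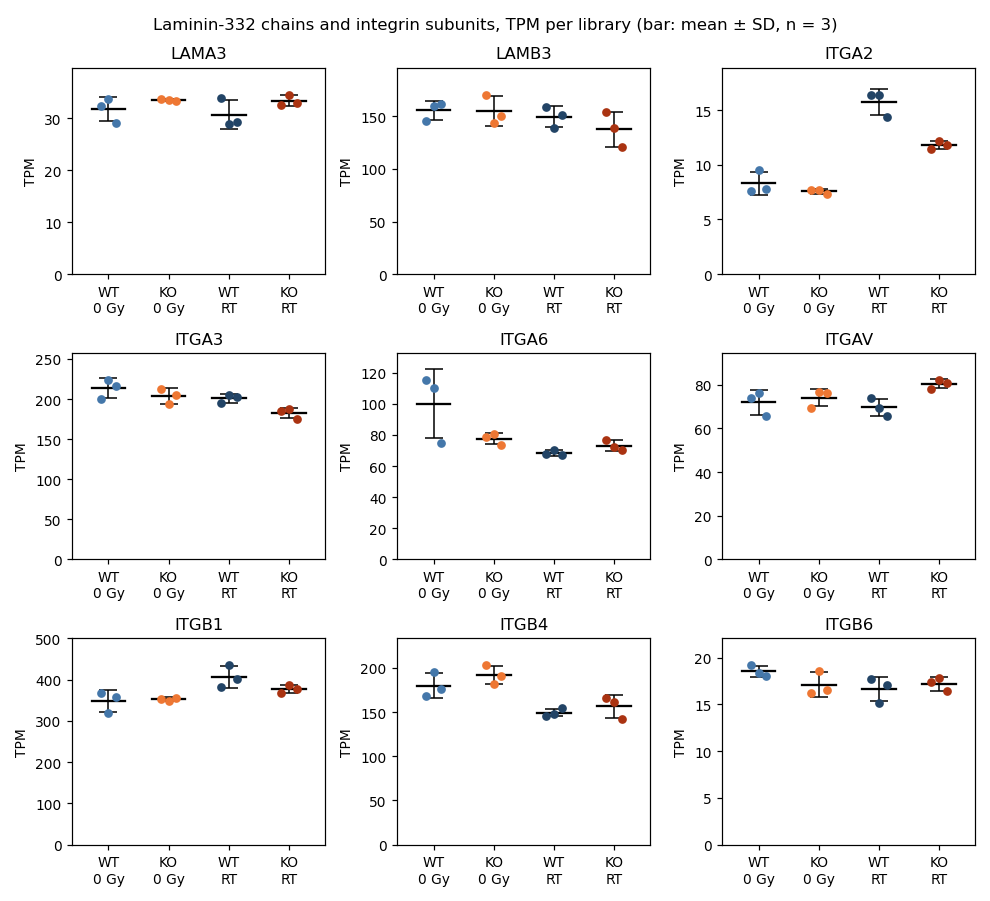
TPM of the 9 genes in each library, 1 panel per gene with its own linear axis from 0; points are libraries, horizontal bars are group means and error bars are SD (n = 3), RT means irradiated. ITGA2 is the gene whose irradiated libraries (11.4 to 16.4 TPM) sit apart from its unirradiated libraries (7.28 to 9.49 TPM) by the widest relative gap, while the ITGA6 unirradiated WT libraries are split.

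ITGA3, the α subunit of the laminin receptor α3β1, was the most abundant α subunit. It was at 200, 224 and 217 TPM in unirradiated WT, 213, 194 and 204 in unirradiated KO, 195, 205 and 203 in irradiated WT, and 185, 187 and 175 in irradiated KO. The irradiated KO libraries were below those of every other group. The differences were small and did not pass the threshold, at −0.16 for radiation in KO (95% interval −0.28 to −0.04, adjusted p = 0.14) and −0.14 for KO against WT in irradiated cells (−0.26 to −0.02, adjusted p = 0.21).

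ITGA6, the partner of ITGB4 in the hemidesmosome, was at 115, 110 and 74.6 TPM in unirradiated WT. The other groups were narrower, with 78.8, 80.3 and 73.5 TPM in unirradiated KO, 67.7, 70.4 and 67.1 in irradiated WT, and 76.7, 72.4 and 70.4 in irradiated KO. Replicate 3 of unirradiated WT lay within the range of unirradiated KO, and the other replicates of its group were the highest of all 12 libraries. With all libraries, the log2 fold change was −0.52 for radiation in WT (SE 0.13, adjusted p = 0.061), −0.34 for KO against WT in unirradiated cells (adjusted p = 0.28) and −0.08 for radiation in KO (adjusted p = 0.80). The difference between the radiation effects was 0.43 (adjusted p = 0.74).

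The ITGA6 calls depended on a single library and on the scaling. With all 12 libraries, radiation in WT also passed with median-of-ratios factors (adjusted p = 0.046). Without replicate 3 of unirradiated WT, the same differences were −0.71 for radiation in WT (adjusted p = 5.0e-04), −0.53 for KO against WT (adjusted p = 0.0016) and 0.63 for the difference between the radiation effects (adjusted p = 0.042). All 3 use the same unirradiated WT libraries and are therefore not separate observations, and the remaining pair of libraries is assumed to vary like the other groups. Replicate 3 of unirradiated WT also stood apart in other listed genes, picked after their values were seen. KRT6A was at 48.5 TPM (95.2 and 104 in the other libraries of the group) and the adaptor PARVB at 76.1 TPM (36.9 and 34.8). Other libraries stood apart in single genes too, such as replicate 1 of the same group in VCL (352 TPM, against 228 and 250). In its correlation over all genes tested, replicate 3 was not apart. Its mean correlation with its group was 0.9849, against 0.9848 and 0.9844 for replicates 1 and 2. This measure mostly reflects differences in level between genes and cannot show whether a library deviates in some of them.

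ITGAV, the α subunit shared by several fibronectin and vitronectin receptors, was at 74.0, 76.3 and 65.6 TPM in unirradiated WT, 69.6, 76.8 and 76.0 in unirradiated KO, 73.8, 69.3 and 65.9 in irradiated WT, and 78.2, 82.3 and 80.7 in irradiated KO. The irradiated KO libraries were the highest of the 12. Irradiated KO exceeded irradiated WT by 0.21 (95% interval 0.06 to 0.36), which did not pass the threshold (adjusted p = 0.14).

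ITGB1, the β subunit that pairs with α2, α3, α6 and αv, had the highest TPM of the 9 genes. It was at 368, 318 and 357 TPM in unirradiated WT and 383, 435 and 402 in irradiated WT, and at 354, 348 and 356 in unirradiated KO and 368, 386 and 377 in irradiated KO. Irradiated and unirradiated libraries did not overlap within either genotype. Neither difference passed the threshold (0.23, 95% interval 0.09 to 0.36, adjusted p = 0.072 in WT, and 0.10, −0.04 to 0.23, adjusted p = 0.45 in KO).

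ITGB4, the β subunit of the hemidesmosome receptor α6β4, was at 168, 195 and 176 TPM in unirradiated WT and 203, 182 and 191 in unirradiated KO. After radiation it was at 146, 148 and 154 TPM in WT and 166, 161 and 142 in KO. No irradiated library (142 to 166 TPM) reached the lowest unirradiated library (168 TPM). The log2 fold change was −0.26 in WT (95% interval −0.43 to −0.10, adjusted p = 0.085) and −0.30 in KO (−0.46 to −0.13, adjusted p = 0.057). Neither passed the threshold. Over the alternatives the adjusted p was 0.051 to 0.22 in WT and 0.029 to 0.16 in KO.

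ITGB6, the β subunit that restricts αvβ6 to epithelium, was the second lowest of the 9 genes in mean level. It was at 19.2, 18.4 and 18.0 TPM in unirradiated WT, 16.2, 18.6 and 16.6 in unirradiated KO, 17.7, 15.2 and 17.1 in irradiated WT, and 17.4, 17.8 and 16.4 in irradiated KO. Its largest difference was −0.15 for radiation in WT (95% interval −0.31 to 0.02, adjusted p = 0.33), where the groups did not overlap.

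Averaging the radiation effect over WT and KO, an estimate added after the data were seen, set 6 irradiated against 6 unirradiated libraries. By this measure 3 of the 9 members changed, where 10.2% of all genes tested did. ITGA2 rose by 0.71 (SE 0.061, adjusted p = 8.1e-05), ITGB4 fell by 0.28 (SE 0.052, adjusted p = 0.0080) and ITGB1 rose by 0.16 (SE 0.043, adjusted p = 0.039). ITGA2 and ITGB4 passed in all 7 alternative settings and all 12 leave-outs, and ITGB1 passed in 3 of 7 settings and 2 of 12 leave-outs, with an adjusted p of up to 0.10. ITGA3 (−0.12, adjusted p = 0.069) and ITGA6 (−0.30, adjusted p = 0.073) did not pass, but each passed with median-of-ratios factors and in 1 leave-out, ITGA3 without unirradiated WT replicate 1 (lowest adjusted p = 0.026 over the alternatives) and ITGA6 without unirradiated WT replicate 3 (lowest adjusted p = 4.4e-04).

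Counts of members that changed are given with the share of all genes tested that did. KO against WT in unirradiated cells changed 0 of the 9 and 1.73% of all genes tested. In irradiated cells it changed 1 of 9, ITGA2, and 3.59% of all genes. Radiation changed 1 of 9 in WT against 3.74% of all genes, and 1 of 9 in KO against 3.69%, ITGA2 in both. The difference between the radiation effects changed 0 of 9 and 0.0188% of all genes. At an unadjusted limma p under 0.05, unirradiated KO against WT gave 1 of 9 members (ITGA6) and 2292 of the 15973 genes. The counts were 3 and 2855 for irradiated KO against WT, 4 and 2910 for radiation in WT, and 3 and 2896 for radiation in KO. For the difference between the radiation effects they were 2 (ITGA2 and ITGA6) and 1056. The groups did not overlap for 0 of 9 members in the unirradiated and 3 of 9 in the irradiated KO comparison, where the shares of all genes were 20.6% and 24.1%. For radiation the counts were 5 of 9 in WT and 5 of 9 in KO, against 24.8% and 24.3% of all genes. The median absolute log2 fold change of the members was 0.15 for radiation in WT and 0.12 in KO, and that of all genes tested was 0.12 and 0.13.

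**Figure D2:**
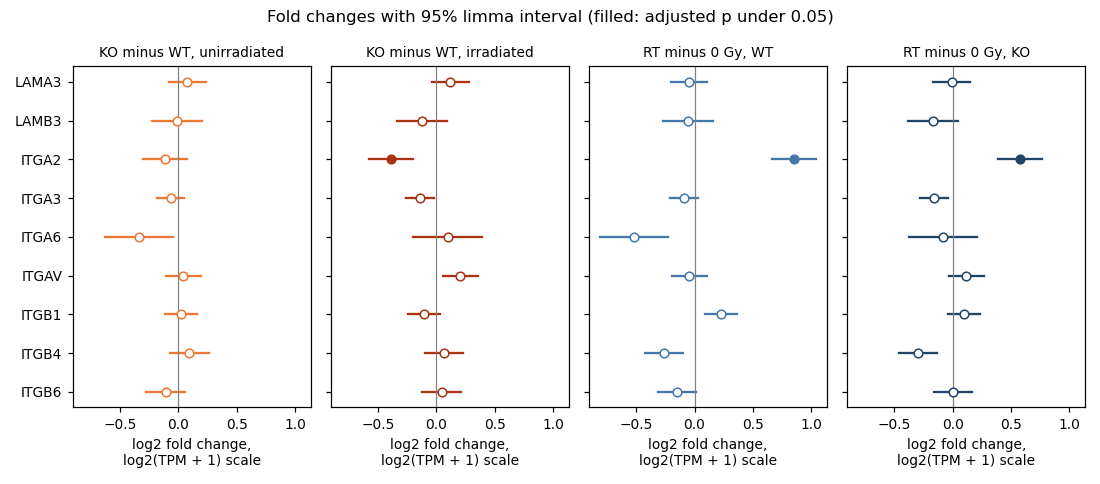
Log2 fold changes on the log2(TPM + 1) scale of the 9 genes in 4 comparisons; circles are limma estimates, lines are 95% intervals, and filled circles passed an adjusted p of 0.05. ITGA2 is the filled gene in 3 panels (0.85, 0.58 and −0.39), and no gene is filled for KO against WT in unirradiated cells.

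Over the 12 libraries the mean levels ran in the order ITGB1 (371 TPM), ITGA3 (200.2), ITGB4 (169), LAMB3 (149.5), ITGA6 (79.8), ITGAV (74.0), LAMA3 (32.3), ITGB6 (17.4) and ITGA2 (10.8). ITGA6 and ITGAV could not be ordered, as their ranges overlapped in all 4 groups. ITGA3 and ITGB4 overlapped in unirradiated KO, ITGB4 and LAMB3 in both irradiated groups, and ITGB6 and ITGA2 in irradiated WT. The summed level of the 9 genes was 1107 to 1146 TPM in unirradiated WT and 1092 to 1127 TPM in irradiated WT, and 1084 to 1147 and 1027 to 1093 TPM in the corresponding KO groups.

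Because integrins act as pairs, the TPM ratio of partner subunits was taken within each library. The ratio of ITGA2 to ITGB1 was 0.0241 ± 0.0050 in unirradiated WT and 0.0388 ± 0.0037 in irradiated WT, and 0.0214 ± 0.00092 and 0.0312 ± 0.00022 in KO (SD, n = 3), with no overlap between irradiated and unirradiated libraries. The ratio of ITGA3 to ITGB1 went the other way, from 0.618 ± 0.081 to 0.494 ± 0.021 in WT and from 0.578 ± 0.022 to 0.484 ± 0.018 in KO, again without overlap. ITGA6 to ITGB1 was 0.289 ± 0.071 before and 0.168 ± 0.0076 after radiation in WT, without overlap. The unirradiated WT libraries were split (0.314, 0.345 and 0.209). In KO this ratio was 0.220 ± 0.013 before and 0.194 ± 0.012 after radiation, with overlap. ITGA6 to ITGB4 went from 0.558 ± 0.13 to 0.458 ± 0.021 in WT, with overlap. In KO it went the other way, from 0.405 ± 0.031 to 0.469 ± 0.024, without overlap. The ratio of ITGAV to ITGB6 overlapped in all 4 comparisons, at 3.88 ± 0.26 in unirradiated WT, 4.33 ± 0.24 in unirradiated KO, 4.20 ± 0.35 in irradiated WT and 4.69 ± 0.22 in irradiated KO. Groups did not overlap in 9 of 28 comparisons of 7 ratios. For the TPM of single genes, groups did not overlap for 20.6% to 24.8% of all genes tested. Several ratios share a subunit and the comparisons share groups, so the 9 are not separate observations. Each of the 9 had the smallest p an exact two-sided permutation test of 3 against 3 libraries can give (p = 0.10, adjusted over the 28 tests p = 0.31). None could therefore pass the threshold. Of the summed TPM of the 4 α subunits, ITGA2 made up 2.10% ± 0.17 in unirradiated WT, 4.43% ± 0.29 in irradiated WT, 2.08% ± 0.07 in unirradiated KO and 3.39% ± 0.12 in irradiated KO.

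**Figure D3:**
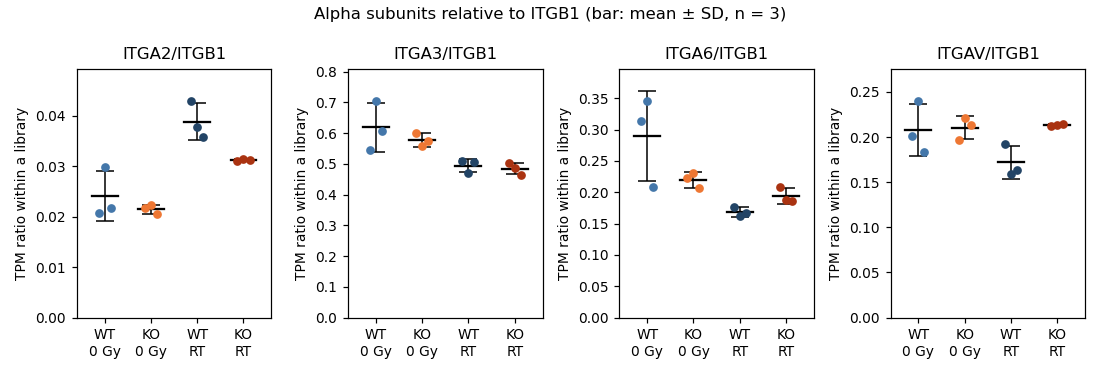
Ratio of the TPM of each α subunit to that of ITGB1 within a library, 1 panel per pair with a linear axis from 0; points are libraries, bars are group means and error bars are SD (n = 3), RT means irradiated. The ITGA2 ratio is higher and the ITGA3 ratio lower in every irradiated library than in every unirradiated library of the same genotype.

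The genes whose log2(TPM + 1) most resembled that of ITGA2 over the 12 libraries, among 11144 genes searched, were COL4A1 (Pearson r = 0.985), which encodes a chain of the basement membrane collagen type IV, and the EGF family ligands EREG (r = 0.985) and HBEGF (r = 0.972). The points share 4 groups of 3 libraries, so these values describe group means as much as single libraries. EREG was at 129 ± 6.34 TPM in unirradiated WT, 190.1 ± 12.1 in irradiated WT, 112 ± 3.68 in unirradiated KO and 156 ± 3.81 in irradiated KO (SD, n = 3). HBEGF was at 7.71 ± 0.77, 12.8 ± 1.13, 6.60 ± 0.61 and 10.4 ± 0.92 TPM in the same order.

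The remaining genes of the adhesion system were taken from lists of other laminin chains, other integrin subunits, basement membrane and hemidesmosome proteins, adaptors, and ligands. Of 5 other laminin chains tested, LAMA5, the α chain of laminin-511, fell after radiation in KO (by 0.45, adjusted p = 0.020) and none changed in WT (LAMA5 −0.29, adjusted p = 0.10). Of 10 other integrin subunits tested, ITGA5, the α subunit of the fibronectin receptor α5β1, rose after radiation in WT (0.38, adjusted p = 0.036) and was lower in KO than in WT both before (−0.41, adjusted p = 0.039) and after radiation (−0.60, adjusted p = 0.0033). ITGB8, whose product binds latent TGF-β with αv, fell after radiation in WT (−0.38, adjusted p = 0.022) and in KO (−0.33, adjusted p = 0.038).

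Of 12 hemidesmosome and basement membrane genes tested, 2 rose and 0 fell after radiation in WT, and 1 rose in KO. COL4A1 rose by 0.50 in WT (15.9 ± 1.17 to 22.9 ± 0.57 TPM, SD, n = 3, adjusted p = 0.0022) and by 0.31 in KO (14.8 ± 0.60 to 18.6 ± 0.70 TPM, adjusted p = 0.026), and COL4A2, the chain it assembles with, rose by 0.30 in WT (adjusted p = 0.022). In irradiated cells COL4A1 (−0.29, adjusted p = 0.037) and COL17A1, a hemidesmosome collagen (−0.42, adjusted p = 0.022), were lower in KO than in WT. Of 28 adaptor and focal adhesion genes tested, TNS3, a tensin that links integrin tails to actin, fell in WT (−0.63, adjusted p = 3.6e-04) and KO (−0.53, adjusted p = 9.6e-04) and was 0.29 higher in KO than in WT after radiation (adjusted p = 0.021). SRC, an adhesion kinase, rose by 0.17 in KO after radiation (adjusted p = 0.048), and the other 26 changed in none of the 4 comparisons.

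Of 10 ligand and latent TGF-β genes tested, 5 rose and 0 fell after radiation in WT, with a list median of 0.38, and 5 rose and 0 fell in KO, with a median of 0.34, where the medians of all genes tested were 0.02 in both. The list too was chosen with earlier results of these data known. They were FN1 (fibronectin), THBS1 (thrombospondin), the matricellular ligands CYR61 and CTGF, and TGFB1, the latent cytokine that αvβ6 activates. TGFB1 rose in WT (0.47, adjusted p = 0.0014) and in KO (0.39, adjusted p = 0.0038), and was lower in KO than in WT before (−0.32, adjusted p = 0.013) and after radiation (−0.39, adjusted p = 0.0026). FN1 rose in WT (0.68, adjusted p = 0.034) and in KO (0.92, adjusted p = 0.0086), and in unirradiated cells was lower in KO (−0.83, adjusted p = 0.017). Of the calls named in these lists, those of CYR61 and TNS3 after radiation in both genotypes, TGFB1 after radiation in both genotypes and in irradiated KO against WT, COL4A1, THBS1 and CTGF after radiation in WT, FN1 after radiation in KO and ITGA5 in irradiated KO against WT held in every alternative and leave-out, and the others were lost in at least 1.

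**Figure D4:**
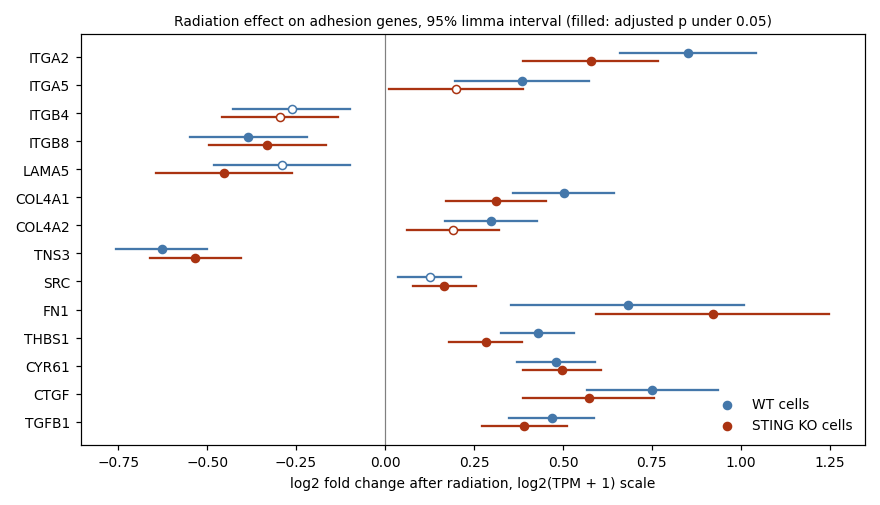
Log2 fold change after radiation on the log2(TPM + 1) scale for ITGA2, ITGB4 and the 12 listed adhesion genes that passed the threshold in at least 1 radiation comparison; blue is WT, red is STING KO, lines are 95% limma intervals and filled circles passed an adjusted p of 0.05. The 5 ligand genes and COL4A1 lie to the right of 0 in both genotypes together with ITGA2 (0.85 and 0.58), and ITGB8 and TNS3 lie to the left in both.

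On GRCh38 in GENCODE 29, 6 of the 9 genes lie on the plus strand, LAMA3 at chr18:23689443-23956222, ITGA2 at chr5:52989326-53094779, ITGA3 at chr17:50055968-50090481, ITGA6 at chr2:172427354-172506282, ITGAV at chr2:186590065-186680901 and ITGB4 at chr17:75721328-75757818. LAMB3 at chr1:209614870-209652466, ITGB1 at chr10:32900319-33005792 and ITGB6 at chr2:160099666-160200313 lie on the minus strand. Each value is for the whole gene and does not separate its isoforms. The strand setting of the quantification is not given in the sources used here, so reads of genes overlapping on the opposite strand cannot be told apart. Overlapping antisense genes of ITGA2 and ITGA6 were at most 0.848 TPM, and GALK1, which overlaps ITGB4 on the opposite strand, was at 4.59 to 7.42 TPM.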

How the data were processed

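RNA was purified on oligo-dT beads and sequenced as 100 bp paired-end reads on a NovaSeq, in 12 libraries of FaDu cells. The authors deposited TPM values per gene and library. Each library summed to 1000000, no gene had been filtered out, and 25770 of 58288 genes were at 0 in all 12. The submitters' processing notes name HISAT2, StringTie, DESeq2 and hg38 without a role, and the annotation and versions are not given in the sources used here. The depth behind a TPM value is unknown, and the spread between libraries is the measure of error. Columns whose code stands for the non-targeting gRNA were taken as STING WT and the columns of the only other cell name as STING KO. TMEM173 was lower in each of the latter.

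Genes with at least 1 TPM in 3 or more libraries were tested on log2(TPM + 1) with limma 3.58.1 in R 4.3.3 (4 group means, eBayes with trend, 8 residual degrees of freedom), a fold change scale that understates changes of low genes, with Benjamini-Hochberg adjustment and a threshold of 0.05. The authors' analysis was on counts. The code was tested on simulated data. Ratios of partner subunits were compared with exact permutation tests in SciPy 1.17.1. Alternative settings used 0.1 as the pseudocount, no filter, a mean of at least 5 TPM, median-of-ratios factors, quantile normalization, no trend, the replicate number as a block, only the libraries compared, and each library left out. The 9 genes and all lists were chosen with earlier results of these data known. Named genes were the 9 members, TMEM173, in each list and comparison at most the 5 genes past the threshold with the smallest adjusted p, and the 3 genes most correlated with a member that passed. CDH5, GALK1, marker genes, and genes given only for comparison were named besides. Positions are from GENCODE 29. File identifiers of 58025 genes matched it when version suffixes were ignored.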

Additional observations from a re-analysis of the deposited data

How the results depend on the processing

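The rise of ITGA2 after radiation, in WT and in KO, kept its direction and its side of the threshold under every alternative run. The count of members that changed in the irradiated KO comparison was 0 with no filter on low values and 0 with only the libraries compared, and 0 to 1 with a library left out. For radiation in WT it was 2 with median-of-ratios factors (ITGA6 added) and 1 to 2 with a library left out, and in KO it was 2 with a mean of at least 5 TPM, 2 with median-of-ratios factors (ITGB4 added) and 1 to 2 with a library left out (ITGB4 again, without replicate 2 of unirradiated WT). For the radiation effect averaged over WT and KO it was 2 to 4 over all alternatives (3 as reported). For the unirradiated KO comparison and for the difference between the radiation effects it was 0 to 1 with a library left out, the 1 being ITGA6 without replicate 3 of unirradiated WT.

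No pairing by replicate number was seen. Deviations of same-numbered libraries from their group means correlated at −0.060 to 0.064, and those of different-numbered libraries at −0.070 to 0.057. With 3 libraries per group, this check cannot exclude a pairing. With the replicate number as a block, 211 of all genes changed in the unirradiated KO comparison (276 without the block), 378 in the irradiated KO comparison (573), 315 with radiation in WT (597), 359 with radiation in KO (590) and 1 for the difference between the radiation effects (3), and the count of members was the same in each. With only the libraries compared, the counts were 103, 252, 166 and 195. For the difference between the radiation effects 7 genes changed with no filter and 1 without the trend. With a library left out, the counts ran from 172 to 292, 313 to 542, 242 to 526, 268 to 553 and 1 to 9, in the order given for the block. Where the lone pair remaining in a group was fitted, it was assumed to vary like the other groups.

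Differences near 0 changed sign. LAMB3 in the unirradiated KO comparison was 0.015 with median-of-ratios factors, 0.0026 with quantile normalization and −0.084 to 0.042 with a library left out. ITGB6 with radiation in KO was −0.024, −0.0067 and −0.031 to 0.063 under the same settings. With a library left out, the unirradiated KO difference was −0.021 to 0.088 for ITGAV and −0.040 to 0.065 for ITGB1, the irradiated KO difference of ITGB6 was −0.017 to 0.088, the radiation effect on LAMA3 in KO was −0.031 to 0.012, and the difference between the radiation effects was −0.0016 to 0.11 for LAMA3 and −0.094 to 0.036 for ITGB4. The cause was not tested. Depth is unknown, and bulk RNA cannot tell fewer cells of a type from less RNA per cell.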
